A study of Homo sapiens with 9 samples.

Results

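The genes described here are 35 genes of protein folding, quality control and stress signalling in the endoplasmic reticulum (ER). They were picked by gene symbol from a table of 20812 genes and measured in SKBR3, a human breast cancer line in long-established use that carries extra copies of ERBB2. All 35 symbols were found, each with 1 amplicon. The rows of HSP90B1 and SYVN1 each carry a second gene ID (for HSP90B1 that of a microRNA gene), and reads of a transcript overlapping an amplicon cannot be told apart from the gene's own. The members are 12 lumenal chaperones and co-chaperones, 4 disulfide isomerases, 10 genes of ER-associated degradation, 7 sensors and transcription factors of the unfolded protein response, and 2 translocon subunits.

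All cells were SKBR3 cells transfected with 10 nM siRNA by Lipofectamine RNAiMAX and kept for 48 h. The 3 groups of 3 libraries received a non-targeting siRNA (control), a first siRNA against PVRL4 (siRNA 1) or a second one (siRNA 2). PVRL4 encodes nectin-4, a cell adhesion protein. The control duplex was an ON-TARGETplus product of Horizon Discovery and both PVRL4 duplexes came from Integrated DNA Technologies, so supplier and target cannot be told apart in either comparison with control. The labels do not say whether replicates were separate cultures, and the p-values here reflect only how these libraries vary, which may be technical variation.

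Secreted and membrane proteins enter the ER through the Sec61 channel and fold there with the help of chaperones, lectins and disulfide isomerases. Chains that fail to fold are unmasked by mannosidase-like proteins, drawn back across the membrane and degraded by the proteasome. When unfolded chains build up, 3 membrane sensors respond: ATF6, which is cut to release a transcription factor, IRE1 (gene ERN1), which splices XBP1 mRNA, and PERK (gene EIF2AK3), which slows translation and favours that of ATF4. ATF6 and spliced XBP1 act on ER stress response elements in promoters of chaperone genes. An amplicon read counts XBP1 mRNA of both forms together, and cleavage of ATF6 or phosphorylation of PERK leaves no trace in these data. ER folding capacity is of interest in this line because ERBB2 and nectin-4 are themselves made in the ER.

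Many of these genes share promoter elements, which are shown first because the genes are usually read as 1 program. RefSeq promoters (GRCh38.p14, 250 bases before to 50 after the start) were listed for 32 of the 35 members, in 43 sequences. On either strand, the ER stress response element (ERSE: CCAAT, then any 9 bases, then CCACG) was found in the promoters of 7 of 32 member genes and in 0.0916% of 27305 genes in the table. The ERSE-II form (ATTGG, then any 1 base, then CCACG) was found for 3 member genes and for 0.0696% of all genes. The shorter motif TGACGTGG, bound by XBP1 and ATF6, occurred in 1 member promoter (HYOU1, where it overlaps the ERSE-II) and in 0.729% of all promoters. A motif of ATF4 and its partners, TGATGNAA, occurred in 1 member promoter (HERPUD1) and in 3.62% of all promoters. The members were chosen for their known role in this response, so these counts describe the genes and are no test of them.

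The stretch before the start of HSPA5, the textbook target of the response, and that of CRELD2 come before the shorter sites. Both are on the gene's own strand, 5′ to 3′, and end 1 base before the start, with the element in capitals. In CRELD2 the element lies on the opposite strand, so it reads reversed and complemented.
HSPA5 (chr9:125241344-125241543, minus strand): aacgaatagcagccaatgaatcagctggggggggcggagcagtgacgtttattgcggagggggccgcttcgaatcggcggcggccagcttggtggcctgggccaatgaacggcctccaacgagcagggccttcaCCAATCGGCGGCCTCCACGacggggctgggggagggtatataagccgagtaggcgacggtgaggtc
CRELD2 (chr22:49918514-49918633, plus strand): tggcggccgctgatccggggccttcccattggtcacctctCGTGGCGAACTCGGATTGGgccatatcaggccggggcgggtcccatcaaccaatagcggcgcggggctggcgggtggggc

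The other ERSE matches are given with 5 bases on each side. HSP90B1 has 2 of them, 1 in each orientation.
HSP90B1 (chr12:103930211-103930239, plus strand): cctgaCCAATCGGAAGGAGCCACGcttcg
HSP90B1 (chr12:103930316-103930344, plus strand): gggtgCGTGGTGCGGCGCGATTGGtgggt
CALR (chr19:12938379-12938407, plus strand): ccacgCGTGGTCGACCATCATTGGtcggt
CANX (chr5:179698773-179698801, plus strand): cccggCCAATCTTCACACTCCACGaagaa
PDIA6 (chr2:10812848-10812876, minus strand): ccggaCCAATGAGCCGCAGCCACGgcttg
XBP1 (chr22:28800598-28800626, minus strand): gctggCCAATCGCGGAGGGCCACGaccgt

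The 3 genes with the ERSE-II form are shown in the same way, with 8 bases on each side. HYOU1 again has 2 matches.
HYOU1 (chr11:119057372-119057398, minus strand): ccccgtgaCGTGGTCCAATcccaggcc
HYOU1 (chr11:119057266-119057292, minus strand): gcctgggaCGTGGTCCAATgagtacgc
HERPUD1 (chr16:56932017-56932043, plus strand): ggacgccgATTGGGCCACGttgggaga
SDF2L1 (chr22:21642106-21642132, plus strand): ctcggaagCGTGGACCAATcaaaaccc

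The values are RPM, that is, the reads of a gene's amplicon scaled to the same total in every library. Levels are compared between libraries and not between genes, since amplicons differ in efficiency. In 8 libraries the RPM steps gave back 10145426 to 10707786 reads, with 3 reads worth 0.280 to 0.296 RPM. For siRNA 2 replicate 1 the estimate was 10017132 reads, a recovery that could not be verified. In the 9 libraries, 13758 to 13996 genes had a value. Amplicon reads carry no molecular identifiers, so such floors cover counting error only. The target PVRL4 spanned 7.86 to 11.6 RPM across controls, 4.36 to 5.99 RPM under siRNA 1 and 2.58 to 3.39 RPM under siRNA 2, so the 3 groups did not overlap. Of 8 luminal epithelial markers, CDH1 was at or near 0, and the summed level of the 8 ranged over 9893 to 10662 RPM (control), 9726 to 10159 RPM (siRNA 1) and 8355 to 8880 RPM (siRNA 2). Among markers of other cells, PTPRC, CD3D and MS4A1 of leukocytes and IGJ and TNFRSF17 of plasma cells, the cells best known for a large ER, were at 0 in all 9 libraries. The plasma cell list summed to 563 to 808 RPM (control), 601 to 709 RPM (siRNA 1) and 629 to 789 RPM (siRNA 2). Nearly all of this came from SDC1, a syndecan that epithelial cells also make. MZB1 of the same list was not at 0, with means of 14.3 RPM (control), 16.0 RPM (siRNA 1) and 14.2 RPM (siRNA 2). The leukocyte list summed to at most 1.16 RPM in any library, the fibroblast list to 4.29 to 8.03 RPM (mostly COL1A1) and the endothelial list to 4.48 to 10.3 RPM (mostly CDH5). In bulk RNA, fewer cells of a type and less RNA per cell cannot be told apart.

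With siRNA 1, no member passed the test against control. With siRNA 2, HSP90B1 (the ER form of HSP90) fell to 58.4% of the control mean, CRELD2 (a secreted ER stress factor) to 66.0% and EDEM1 (a degradation factor for misfolded glycoproteins) to 65.9%. HSPA5, DNAJB9, ATF6 and ATF4 were between 91.4% and 103% of the control mean. Other members were lower without passing this test, with TRIB3 at 67.2%, EIF2AK3 at 81.1%, CALR at 84.5%, HERPUD1 at 85.1% and XBP1 at 85.6%. With the replicate number added to the fit, TRIB3, EDEM3 and SEC61A1 also passed as lower. No tested member was called higher with either siRNA, and DDIT3 was too low for the test.

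A gene was called changed at a limma adjusted p under 0.05, with adjustment over all 11158 genes that averaged at least 1 RPM. Of the 35 members, 33 were tested, since DERL3 was at 0 in every library and DDIT3 averaged under 1 RPM. With siRNA 1 against control, 0 of 33 members were called higher and 0 lower, beside 0.636% and 0.215% of all tested genes. At an unadjusted p under 0.05, 0 members were higher and 1 was lower (EDEM3), beside 3.26% and 2.78% of all genes, and edgeR and DESeq2 on recovered reads also called 0 members. With siRNA 2 against control, 0 members were called higher and 3 lower (HSP90B1, CRELD2 and EDEM1), beside 0.0358% and 0.645% of all genes. The higher count was 0 at an unadjusted p as well, beside 2.49% of all genes, and 0 by edgeR and DESeq2. Between the PVRL4 siRNAs, the same 3 genes were called lower with siRNA 2 and 0 were higher, beside 2.46% and 0.592% of all genes. Here too the higher count was 0 at an unadjusted p, beside 5.05% of all genes, and 0 by edgeR and DESeq2. Both comparisons of siRNA 2 use the same 3 libraries of siRNA 2, so they are not independent of each other.

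The smaller shifts lay mostly on the low side. The log2 change was negative for 27 of 33 members with siRNA 2 against control, with a median of -0.11 against -0.02 over all tested genes, of which 54.6% were negative. It was negative for 14 of 33 with siRNA 1, with a median of 0.02 against 0.01 over all genes, of which 46.1% were negative. Between the siRNAs it was negative for 26 of 33, with a median of -0.15 against -0.04 over all genes, of which 57.1% were negative. All 3 siRNA 2 libraries lay below all 3 control libraries for 11 members, beside 8.95% of all genes, and below all 3 siRNA 1 libraries for 11 members, beside 12.6% of all genes. With siRNA 1 against control, 3 members (MANF, EDEM1 and EDEM3) did not overlap on the low side and 1 (PDIA6) on the high side, beside 5.59% and 6.40% of all genes.

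**Figure D1:**
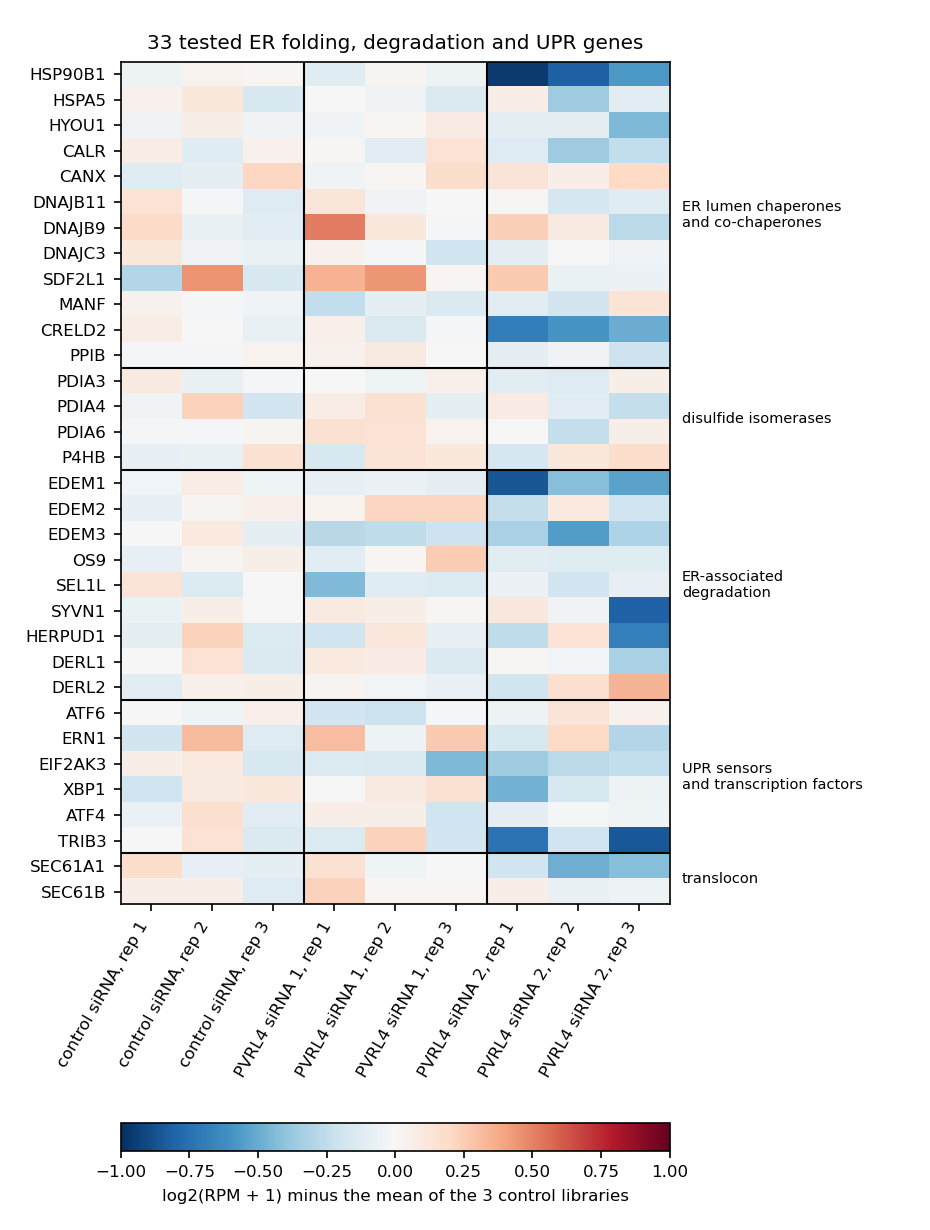
Each cell of the heat map is log2(RPM + 1) of 1 gene in 1 library minus the mean of the 3 control libraries, for the 33 tested members ordered by role, with blue below control and red above. Blue cells gather in the 3 siRNA 2 columns for HSP90B1, CRELD2, EDEM1 and TRIB3, while the siRNA 1 columns stay pale apart from single cells such as DNAJB9 in replicate 1.

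Libraries with the same replicate number deviated from their group means together, with correlations of 0.25 to 0.42 for all 9 pairs. The replicate number was therefore taken to pair the samples, which the labels do not state. With that number added to the fit as a block, limma called 6 members lower with siRNA 2 against control, beside 2.95% of all genes: HSP90B1, CRELD2, EDEM1, EDEM3, TRIB3 and SEC61A1. Between the siRNAs the block gave 6 lower, beside 6.52% of all genes, with XBP1 in place of EDEM3. With siRNA 1 against control it gave 0. Within the 3 same-number pairs, 14 members were lower with siRNA 2 than control in every pair, beside 21.2% of all genes.

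**Figure D2:**
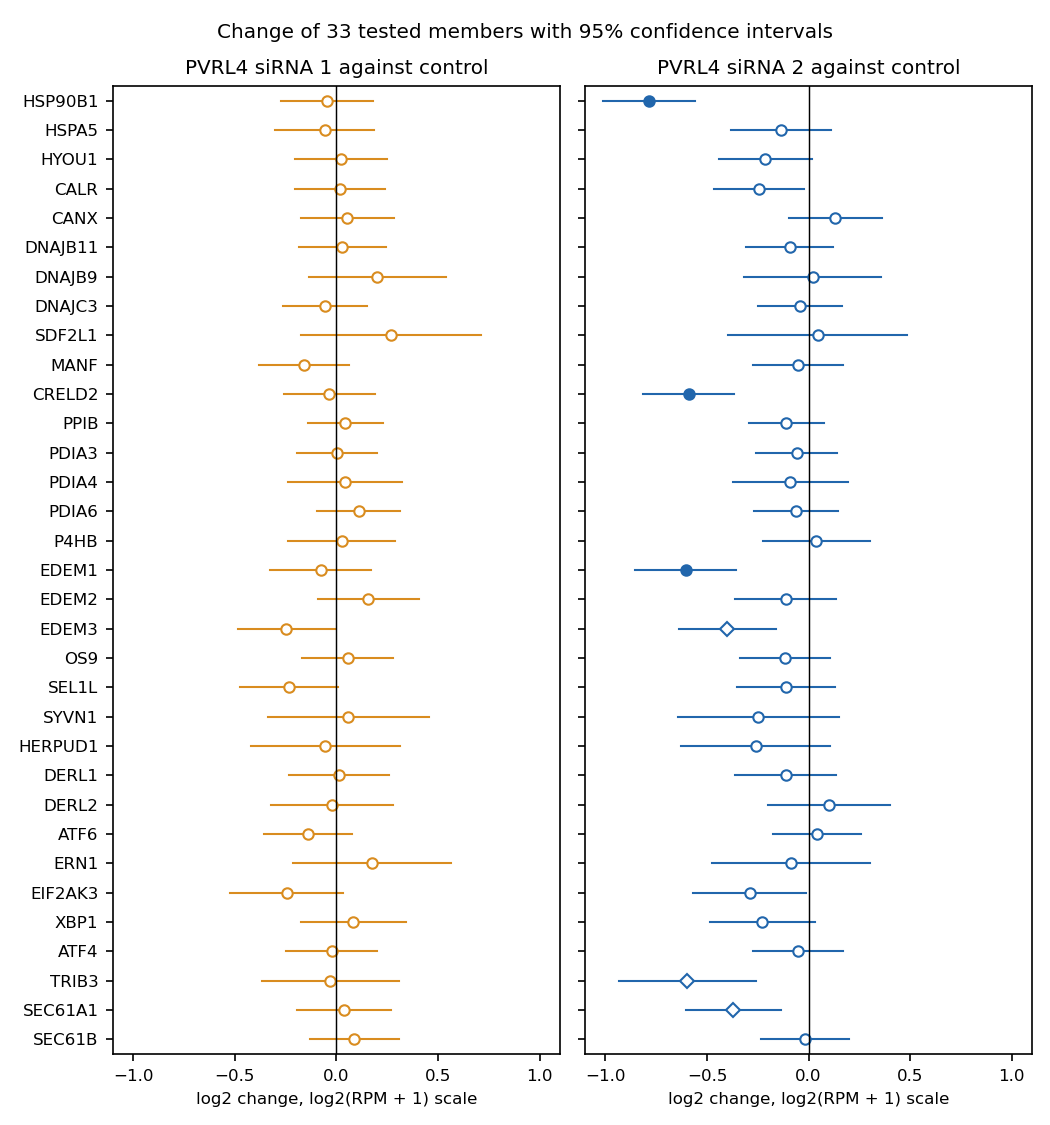
Points are log2 changes on the log2(RPM + 1) scale with 95% confidence intervals for the 33 tested members, siRNA 1 against control on the left and siRNA 2 against control on the right; filled circles passed an adjusted p of 0.05, open diamonds passed it only with the replicate block, and open circles passed neither. The 3 filled circles and the 3 diamonds are all on the right and all below 0.

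Among the lumenal chaperones, HSP90B1 (GRP94, which folds integrins and Toll-like receptors) moved most. Its level was 1997, 2131 and 2097 RPM in control replicates 1 to 3, 1909, 2109 and 2004 RPM with siRNA 1, and 1068, 1175 and 1392 RPM with siRNA 2. The siRNA 2 libraries lay far below the other 6, which overlapped one another. HSP90B1 fell by 0.78 on the log2 scale with siRNA 2 against control (SE 0.105, 95% interval -1.01 to -0.56, limma adjusted p = 0.00245), and was lower by 0.90, 0.86 and 0.59 in the 3 same-number pairs as differences of log2(RPM + 1). Against siRNA 1 the log2 change was -0.74 (SE 0.105, limma adjusted p = 0.0019). Both calls held with each library left out in turn and by edgeR (adjusted p = 0.0482 against control and 0.0269 against siRNA 1). With siRNA 1 against control the change was -0.05 (95% interval -0.27 to 0.18, limma adjusted p = 0.9997).

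CRELD2, a cysteine-rich protein with EGF-like domains that is made and secreted under ER stress, was at 82.4, 77.9 and 73.9 RPM under control siRNA, 80.7, 70.5 and 77.5 RPM with siRNA 1, and 48.0, 51.6 and 55.0 RPM with siRNA 2. As for HSP90B1, the siRNA 2 libraries stood apart and the other 6 overlapped. CRELD2 fell by 0.59 with siRNA 2 against control (SE 0.105, 95% interval -0.82 to -0.37, limma adjusted p = 0.0219), and the change against siRNA 1 was -0.56 (limma adjusted p = 0.0106). The call against control was lost without any 1 of the control libraries or without siRNA 2 replicate 1 or 2 (limma adjusted p = 0.0545 to 0.109), and the call against siRNA 1 was lost without siRNA 1 replicate 1 (limma adjusted p = 0.0528). On the reads of 8 libraries, neither passed by edgeR (adjusted p = 0.166 and 0.0887) and both passed by DESeq2 (adjusted p = 0.0469 and 0.0489).

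HSPA5 (BiP), the Hsp70 chaperone of the ER that holds the sensors inactive, was at 442, 460.0 and 385 RPM in the control libraries, 427, 418 and 387 RPM with siRNA 1, and 447, 333 and 395 RPM with siRNA 2. The 3 groups overlapped, and siRNA 2 replicate 2 was the lowest library. The log2 change was -0.06 with siRNA 1 (95% interval -0.30 to 0.19, limma adjusted p = 0.9997) and -0.14 with siRNA 2 (95% interval -0.38 to 0.11, limma adjusted p = 0.794), and the difference between the siRNAs was -0.08 (limma adjusted p = 0.813). HSPA5 and HSP90B1 both hold an ERSE and are usually named together as targets of ATF6, but the difference between their changes was not tested.

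CALR (calreticulin, the soluble lectin chaperone) was at 2206, 1928 and 2164 RPM under control siRNA, 2109, 1950 and 2317 RPM with siRNA 1, and 1921, 1634 and 1764 RPM with siRNA 2. The siRNA 2 libraries were just below the others without overlap, and the change against control, -0.24, did not pass (limma adjusted p = 0.47, and 0.115 with the block). Its membrane-bound relative CANX (calnexin) was at 1839 ± 233 RPM in the control libraries, 1903 ± 145 RPM with siRNA 1 and 2007 ± 91.6 RPM with siRNA 2 (mean ± SD, n = 3 libraries), with all groups overlapping. HYOU1, the nucleotide exchange partner of BiP, was at 264, 283 and 264 RPM under control siRNA, 264, 274 and 286 RPM with siRNA 1, and 253, 253 and 198 RPM with siRNA 2. The siRNA 2 libraries were lowest, 1 of them by far, and HYOU1 did not pass the test.

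The DnaJ co-chaperones, which deliver clients to BiP, gave overlapping groups. DNAJB11 averaged 248 ± 24.0, 252 ± 14.1 and 232 ± 15.7 RPM in the control libraries, siRNA 1 and siRNA 2 (SD, n = 3). DNAJC3 (P58IPK, which also binds PERK) averaged 224 ± 14.3, 216 ± 18.7 and 218 ± 7.49 RPM. DNAJB9 (ERdj4), a target of spliced XBP1, was at 77.8, 64.4 and 62.9 RPM under control siRNA, 97.7, 73.4 and 67.2 RPM with siRNA 1, and 80.4, 72.7 and 56.2 RPM with siRNA 2, with replicate 1 the highest library of every group. SDF2L1, a partner of the DnaJ proteins, was low at 6.39 to 11.4 RPM over the 9 libraries.

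MANF, a secreted ER stress factor, was at 141, 136 and 134 RPM in the control libraries, 115, 128 and 124 RPM with siRNA 1, and 127, 120.5 and 150.4 RPM with siRNA 2. All siRNA 1 libraries were below all controls, while siRNA 2 spanned both. PPIB (cyclophilin B, a prolyl isomerase) was at 993, 989 and 1028 RPM under control siRNA, 1035, 1067 and 1001 RPM with siRNA 1, and 943, 979 and 871 RPM with siRNA 2. The siRNA 2 libraries were lowest, and neither gene passed the test in any comparison.

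The disulfide isomerases, which form and shuffle disulfide bonds, showed no call in any comparison. P4HB (PDI) averaged 3559 ± 341 RPM in the control libraries, 3626 ± 399.5 RPM with siRNA 1 and 3664 ± 446 RPM with siRNA 2. PDIA3 (ERp57, which works with the lectin chaperones) averaged 1356 ± 78.0, 1358 ± 46.6 and 1303 ± 94.8 RPM in the same order. PDIA4 averaged 59.3 ± 9.05, 60.8 ± 5.32 and 55.5 ± 6.28 RPM (all means ± SD, n = 3). PDIA6 was at 553, 552 and 567 RPM under control siRNA, 619, 615 and 570.4 RPM with siRNA 1, and 557, 472 and 579 RPM with siRNA 2. All siRNA 1 libraries of PDIA6 were above all controls, the only tested member with that pattern on the high side in the siRNA 1 comparison. Over the 4 isomerases, the median log2 change with siRNA 2 was -0.06, against -0.10 over the 12 chaperones.

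**Figure D3:**
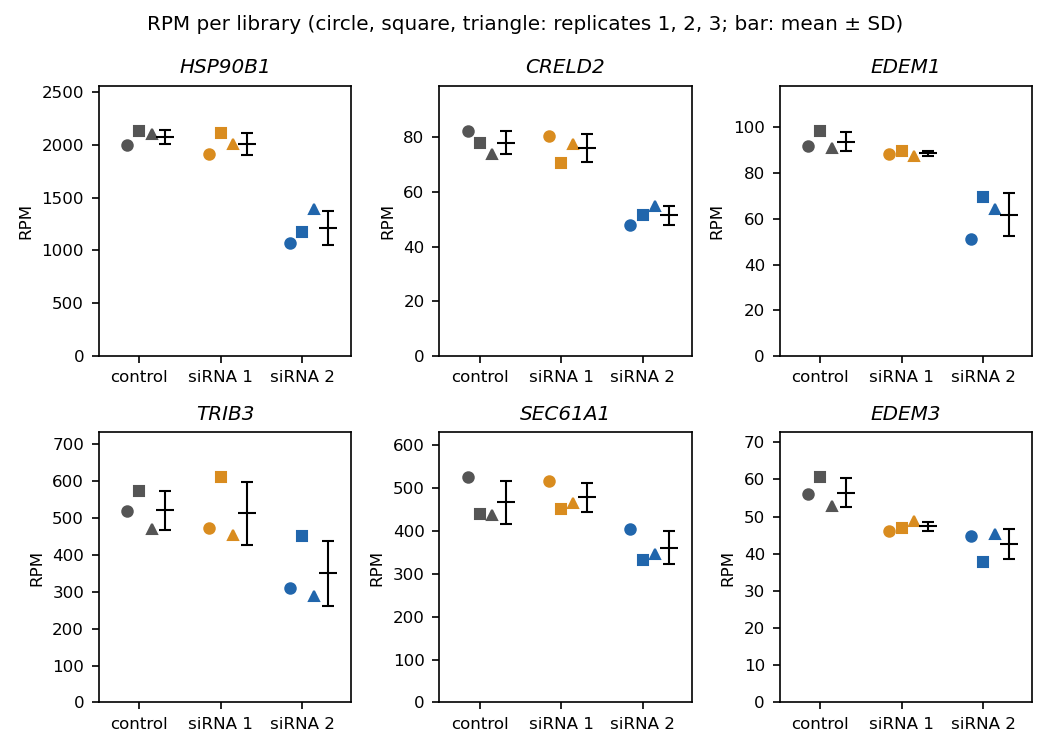
Points are RPM in each of the 9 libraries (circle, square and triangle for replicates 1, 2 and 3) with mean ± SD bars (n = 3), for the 6 members lower with siRNA 2 than control in the fit with the replicate block; each axis starts at 0. In all 6 genes the siRNA 2 libraries lie below the other 6 libraries, by a small margin in TRIB3 and EDEM3. In EDEM1 and EDEM3 the siRNA 1 libraries are also below all controls, only just in EDEM1.

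In ER-associated degradation, EDEM1 was the only member called. The EDEM proteins trim mannose from misfolded glycoproteins, which marks them for removal. EDEM1 was at 91.7, 98.4 and 90.8 RPM in the control libraries, 88.5, 89.9 and 87.4 RPM with siRNA 1, and 51.2, 69.5 and 64.4 RPM with siRNA 2. The siRNA 2 libraries were far below the rest, and the siRNA 1 libraries sat just under control. EDEM1 fell by 0.60 with siRNA 2 against control (SE 0.116, 95% interval -0.85 to -0.36, limma adjusted p = 0.029), and the change against siRNA 1 was -0.53 (limma adjusted p = 0.0249). The call against control was lost without any 1 control library or siRNA 2 replicate 1 or 3 (limma adjusted p = 0.0545 to 0.158), and that against siRNA 1 without any 1 siRNA 1 library or siRNA 2 replicate 1 (limma adjusted p = 0.0726 to 0.0854). On the reads of 8 libraries, neither passed by edgeR (adjusted p = 0.166 and 0.134), and by DESeq2 the first passed and the second did not (adjusted p = 0.0488 and 0.114).

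EDEM3 was at 56.1, 60.5 and 52.7 RPM under control siRNA, 46.3, 47.1 and 48.8 RPM with siRNA 1, and 44.7, 37.9 and 45.2 RPM with siRNA 2. Libraries of both PVRL4 siRNAs were below all controls. Its change was -0.40 with siRNA 2 (SE 0.112, limma adjusted p = 0.166, and 0.0405 with the block) and -0.25 with siRNA 1 (limma adjusted p = 0.796). EDEM2 averaged 63.5 ± 3.12, 70.9 ± 5.04 and 58.9 ± 7.86 RPM in the control libraries, siRNA 1 and siRNA 2 (SD, n = 3), with overlap between control and siRNA 2.

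The HRD1 ligase complex carries misfolded lumenal proteins to the proteasome. Its ligase SYVN1 was at 36.9, 40.5 and 38.9 RPM under control siRNA, 41.3, 40.6 and 39.3 RPM with siRNA 1, and 41.7, 37.8 and 21.7 RPM with siRNA 2. A single library, siRNA 2 replicate 3, was low. The scaffold gene HERPUD1 had the same lowest library, at 203, 253 and 196 RPM in the control libraries, 188, 234 and 204 RPM with siRNA 1, and 181, 239 and 134 RPM with siRNA 2. Neither passed the test. That library also had the highest summed level of 10 interferon-induced genes among the siRNA 2 libraries. The sum was 105.6 RPM, against 39.3 and 50.4 RPM in the others. In the siRNA 1 libraries, which overlapped control in SYVN1 and HERPUD1, the same sum was 599 to 4827 RPM. Any part of the interferon-induced genes in the SYVN1 and HERPUD1 values was not tested.

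The adaptor SEL1L averaged 125 ± 11.6, 106 ± 12.9 and 115 ± 5.54 RPM under control siRNA, siRNA 1 and siRNA 2 (SD, n = 3). The lectin OS9 was at 126, 136 and 139.6 RPM in the control libraries, 125, 136 and 159.5 RPM with siRNA 1, and 124, 123 and 123 RPM with siRNA 2, so its siRNA 2 libraries were the lowest by a small margin. The derlins form part of the channel through which chains leave the ER. DERL1 averaged 401 ± 40.9, 404 ± 36.5 and 371 ± 45.6 RPM in the same order. DERL2 was at 27.7 to 40.7 RPM over the 9 libraries, with both extremes in the siRNA 2 group, and DERL3 was at 0 in all 9 libraries. None of SEL1L, OS9, DERL1 and DERL2 passed the test in any comparison.

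The sensors of the unfolded protein response did not pass the test with either siRNA. ATF6 was at 91.5, 89.0 and 94.8 RPM under control siRNA, 80.4, 78.8 and 90.9 RPM with siRNA 1, and 88.7, 101 and 94.4 RPM with siRNA 2. The siRNA 1 libraries reached lowest but overlapped control, and siRNA 2 overlapped both. The log2 change of ATF6 was -0.14 with siRNA 1 (95% interval -0.35 to 0.08, limma adjusted p = 0.9997) and 0.04 with siRNA 2 (95% interval -0.17 to 0.26, limma adjusted p = 0.955), and 0.18 between them (limma adjusted p = 0.431).

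ERN1 was at 12.8, 18.7 and 13.4 RPM in the control libraries, 18.5, 14.2 and 17.8 RPM with siRNA 1, and 13.1, 17.1 and 11.8 RPM with siRNA 2. All groups overlapped. Its change was 0.17 with siRNA 1 (95% interval -0.21 to 0.56, limma adjusted p = 0.9997), -0.09 with siRNA 2 (95% interval -0.47 to 0.30, limma adjusted p = 0.946) and -0.26 between them (limma adjusted p = 0.551). At this spread, changes of either sign inside those intervals could not be resolved.

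EIF2AK3 was at 35.6, 36.6 and 30.5 RPM under control siRNA, 30.9, 30.8 and 24.7 RPM with siRNA 1, and 26.5, 28.2 and 28.5 RPM with siRNA 2. The siRNA 2 libraries were below all controls, and siRNA 1 overlapped both groups. Its change was -0.24 with siRNA 1 (SE 0.130, limma adjusted p = 0.943), -0.29 with siRNA 2 (SE 0.130, limma adjusted p = 0.503) and -0.05 between them (limma adjusted p = 0.913).

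Of the factors downstream, XBP1 (both mRNA forms) was at 1045, 1279 and 1291 RPM in the control libraries, 1205, 1275 and 1331 RPM with siRNA 1, and 864, 1072 and 1159.5 RPM with siRNA 2. Replicate 1 was lowest in each group, and siRNA 2 overlapped control but not siRNA 1. The change was 0.08 with siRNA 1 (SE 0.120, limma adjusted p = 0.9997) and -0.23 with siRNA 2 (SE 0.120, limma adjusted p = 0.612, and 0.144 with the block). Between the siRNAs it was -0.31 (limma adjusted p = 0.221), and it passed only with the replicate block (adjusted p = 0.0222).

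ATF4, whose mRNA is translated more when PERK is active, was at 443, 522 and 431 RPM under control siRNA, 487, 483 and 404 RPM with siRNA 1, and 433, 458 and 451 RPM with siRNA 2. The 3 groups overlapped, and the change was -0.02 with siRNA 1 (SE 0.104, limma adjusted p = 0.9997), -0.05 with siRNA 2 (SE 0.104, limma adjusted p = 0.944) and -0.03 between them (limma adjusted p = 0.935). The sign of the last was positive under both other scalings. DDIT3 (CHOP), the factor tied to cell death in prolonged ER stress, was at 0.286, 0.284 and 0.197 RPM in the control libraries, 0.966, 0.290 and 0.747 RPM with siRNA 1, and 0.1, 0.388 and 0.382 RPM with siRNA 2. In RPM all siRNA 1 libraries were above all controls. However, siRNA 1 replicate 2 (0.290 RPM) and control replicates 1 and 2 (0.286 and 0.284 RPM) each held 3 reads. They differ only by the scaling to library totals. These are 2 to 10 reads in the 8 libraries with recovered reads, and DDIT3 was below the level needed for the limma test. DESeq2 gave an adjusted p of 0.9999 for siRNA 1 against control and none for the other comparisons.

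TRIB3, a pseudokinase induced by ATF4 and CHOP, was at 519, 573 and 469.6 RPM under control siRNA, 472, 609.8 and 455 RPM with siRNA 1, and 311, 451 and 287 RPM with siRNA 2. Replicate 2 was the highest library in each group, and the siRNA 2 libraries were below all others. Its change with siRNA 2 against control was -0.60 (SE 0.157, 95% interval -0.93 to -0.26), with limma adjusted p = 0.128, and 0.000838 with the block. Against siRNA 1 it was -0.57 (limma adjusted p = 0.0737, and 0.00053 with the block). Without siRNA 2 replicate 2, both changes passed without the block (limma adjusted p = 0.0214 and 0.0119).

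**Figure D4:**
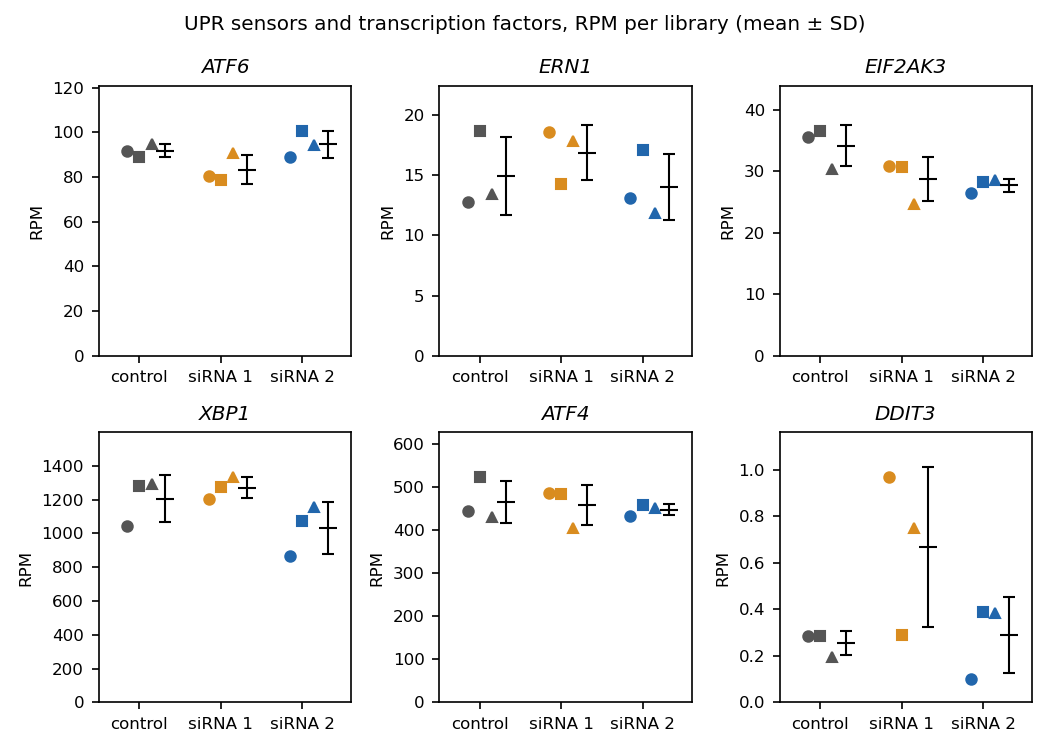
Points are RPM in each of the 9 libraries with mean ± SD bars (n = 3) for 3 sensors and 3 transcription factors, with circle, square and triangle for replicates 1, 2 and 3 and axes from 0. The groups overlap in ATF6, ERN1 and ATF4, siRNA 2 is the lowest group in XBP1, and DDIT3 stays under 1 RPM.

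At the translocon, the channel subunit SEC61A1 was at 525, 439 and 439 RPM in the control libraries, 518, 451 and 466 RPM with siRNA 1, and 406, 332 and 347 RPM with siRNA 2. Replicate 1 was highest in each group, and all siRNA 2 libraries were below all others. The change was -0.37 with siRNA 2 against control (SE 0.108, limma adjusted p = 0.191, and 0.00844 with the block) and -0.41 against siRNA 1 (limma adjusted p = 0.0606, and 0.00221 with the block). The latter also passed without siRNA 2 replicate 1 (limma adjusted p = 0.0483) and by DESeq2 (adjusted p = 0.0442). The small subunit SEC61B averaged 144 ± 11.2, 153 ± 13.1 and 142 ± 7.73 RPM under control siRNA, siRNA 1 and siRNA 2 (SD, n = 3), with all groups overlapping.

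Summed over the 35 members, RPM came to 17782 to 18679 in control, 17627 to 18682 with siRNA 1 and 15735 to 16924 with siRNA 2. The siRNA 2 sums were below all others. The mean sum differed by -1799.7 RPM between siRNA 2 and control, of which HSP90B1 made up -863.5 RPM. Such sums are weighted to genes with strong amplicons, such as P4HB at 3559 RPM in control, and do not describe the 35 members evenly. Without HSP90B1 the sums still did not overlap, at 14667 to 15532 RPM with siRNA 2 beside 15758 to 16581 RPM for control. The summed luminal markers, given above, were also lower with siRNA 2, and the part of this in the members' values was not tested. That sum is likewise weighted to KRT19, at a mean of 5878 RPM in control and 4977 RPM with siRNA 2. Of the 7 tested luminal markers, 6 had negative changes with siRNA 2 against control, with a median of -0.28 against -0.11 over the members. EPCAM went the other way, at a mean of 477 RPM in control and 499 RPM with siRNA 2. Limma called 0 of the 7, but 5 were lower at an unadjusted p under 0.05, beside 6.93% of all genes. With the replicate block 2 were called lower, beside 2.95% of all genes. The sums of the interferon-induced genes reached 599 to 4827 RPM with siRNA 1 and 39.3 to 105.6 RPM with siRNA 2, beside 30.3 to 40.4 RPM in control. Limma called 9 of 10 higher with siRNA 1. With siRNA 2 it called 0 of 10 higher (edgeR and DESeq2 also 0, and 0 passed an unadjusted p of 0.05). All 10 changes were still positive, with a median of 0.56, where 5066 of all 11158 tested genes were positive. For 3 of the 10, all siRNA 2 libraries lay above all controls, beside 557 of the 11158 genes.

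Set beside their promoters, the 3 members called with siRNA 2 were of both kinds. HSP90B1 and CRELD2 hold the ERSE shown above, while EDEM1 had no match to either form in its window, nor had TRIB3, SEC61A1 or EDEM3. Over the 7 genes with an ERSE the change with siRNA 2 ran from -0.78 to 0.13, with a median of -0.23 and 6 below 0. Over the 3 with an ERSE-II it ran from -0.26 to 0.04, with a median of -0.21. Over the 21 tested members with neither form it ran from -0.60 to 0.10, with a median of -0.09 and 17 below 0. Of all tested members HSP90B1 was lowest and CANX, whose 95% interval spans 0, was highest, and both hold an ERSE. Whether the change goes with the element was not tested.

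**Figure D5:**
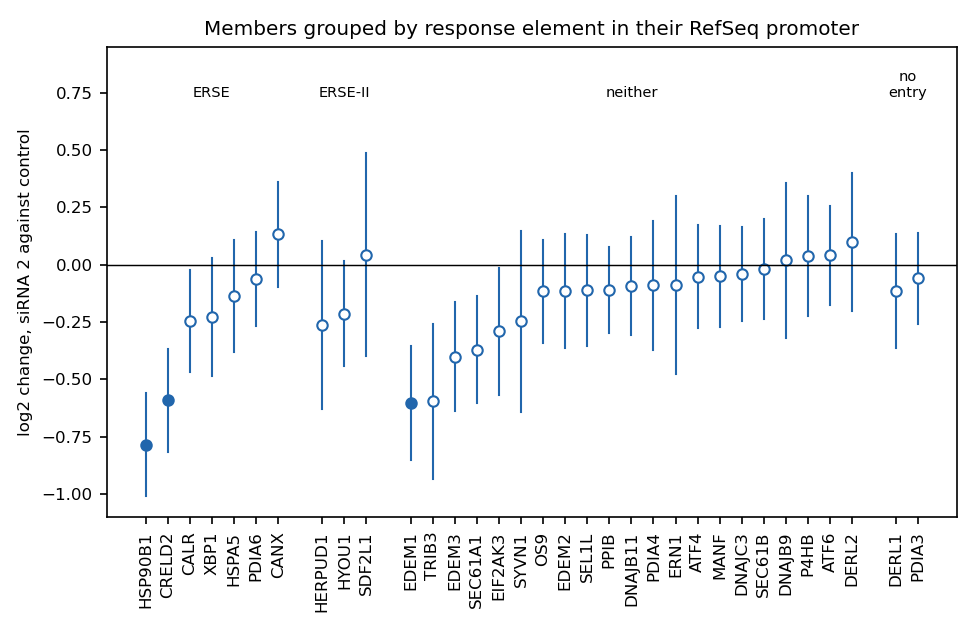
Points are log2 changes of siRNA 2 against control on the log2(RPM + 1) scale with 95% confidence intervals for the 33 tested members, grouped by the element found in their RefSeq promoter and sorted within groups; filled points passed an adjusted p of 0.05. The ERSE group holds both HSP90B1 at -0.78 and CANX at 0.13, the latter with an interval that spans 0. EDEM1 at -0.60 is in the group with neither element.

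Other genes of the same compartment showed few calls. Of 28 tested further ER chaperones and folding enzymes, limma called 0 in either comparison with control (in each, an unadjusted p under 0.05 gave 0 higher and 2 lower, and edgeR called 0). Of 22 other degradation genes, 1 was higher with siRNA 1 than control: FBXO6, a glycoprotein-binding ubiquitin ligase subunit, at 2.02 ± 0.484 RPM under control siRNA, 6.09 ± 1.58 RPM with siRNA 1 and 2.43 ± 0.433 RPM with siRNA 2 (SD, n = 3). FBXO6 rose by 1.22 on the log2 scale (SE 0.215, limma adjusted p = 0.0121), a call lost without control replicate 1 or 3 or siRNA 1 replicate 1 (limma adjusted p = 0.0677 to 0.0816). It was also called by edgeR and DESeq2. With siRNA 2, 0 of the 22 were called against control (1 higher and 1 lower at an unadjusted p, 0 by edgeR and DESeq2).

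TMX1, a membrane-bound thioredoxin of the ER, was at 68.1 ± 9.87 RPM under control siRNA, 49.5 ± 0.131 RPM under siRNA 1 and 71.0 ± 5.70 RPM under siRNA 2 (SD, n = 3). Between the siRNAs it was higher with siRNA 2, by 0.51 on the log2 scale (limma adjusted p = 0.0321), a call lost without any 1 siRNA 1 library or siRNA 2 replicate 1 or 2 (limma adjusted p = 0.0823 to 0.114) and by edgeR (adjusted p = 0.0799). Against control, TMX1 was lower with siRNA 1 by DESeq2 and with the replicate block, but not in the limma fit without it. FBXO6 differed by -1.03 between siRNA 2 and siRNA 1 (limma adjusted p = 0.0179), a call lost without siRNA 1 replicate 1 or siRNA 2 replicate 1 or 2 (limma adjusted p = 0.0510 to 0.0872) and by edgeR and DESeq2 (adjusted p = 0.101 and 0.0944). With the replicate block, LMAN1 (a cargo lectin) and TXNDC5 (a disulfide isomerase) among the chaperones and folding enzymes and ERLEC1 (a lectin) among the degradation genes were also lower with siRNA 2 than control, and these 3 and SVIP were lower with siRNA 2 than siRNA 1.

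The 17 tested genes of N-glycosylation (oligosaccharyltransferase and glucosidases), the 21 of translocation and signal peptide removal, the 23 targets of PERK and ATF4 and the 20 of COPII transport from the ER gave 0 calls by limma, edgeR and DESeq2 in each of the 3 comparisons. Over those lists and comparisons, 0 to 6 genes of a list lay on 1 side at an unadjusted p under 0.05, with the 6 (of 20) in COPII, lower with siRNA 2 than siRNA 1, where 10.1% of all genes were lower at that p. In siRNA 2 against control, the N-glycosylation list had 0 higher and 1 lower, translocation 0 and 1, PERK and ATF4 targets 0 and 0, and COPII 1 and 3, beside 2.49% higher and 6.93% lower of all genes. With the replicate block, SEC24A, a cargo-binding coat subunit of COPII, was lower with siRNA 2 than control, the only call of these 4 lists in that comparison. Between the siRNAs the block called SEC61A2, a translocon subunit, higher with siRNA 2, and TRAM1, PPP1R15A, SEC24A and SEC24C lower. With siRNA 2 against control, the median log2 changes of the 4 lists were 0.06, -0.03, 0.0019 and -0.09, against -0.02 over all genes. TRIB3, which belongs to the same branch as the PERK and ATF4 targets but not to that list, was at -0.60 in this comparison.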

How the data were processed

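Per the labels' protocols, libraries were made from 100 ng of total RNA with Ion AmpliSeq, 1 amplicon a gene. The authors deposited 1 table of RPM values. The submitters' processing notes name hg19 as genome build, and neither aligner nor counter is given in the sources used here. Members and lists were chosen with earlier results of these data known.

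Groups came from sample titles. Genes averaging 1 RPM or more were tested by limma 3.58.1 (R 4.3.3) on the log2(RPM + 1) scale (trended prior, 3 groups sharing 1 spread, two-sided tests, Benjamini-Hochberg adjustment over 11158 genes); this scale understates changes of low genes. The test was tried on simulated data with independent libraries and a fixed spread beyond counting noise. Those data had no shared deviation by replicate number, so the trial does not cover the pairing described below. In every library 100% of low values were whole multiples of 1 read within 0.1 read. For siRNA 2 replicate 1, the step of 0.0998 RPM is so near 0.1 RPM that this share does not settle recovery. edgeR 4.0.16 and DESeq2 1.42.0 were run on recovered reads of 8 libraries, since recovery for siRNA 2 replicate 1 could not be verified. Libraries of a group differed beyond counting noise (chi-square over degrees of freedom, 8.9 to 18.4; pairs with that library not computed). Same-numbered libraries deviated together, with correlations of 0.252 to 0.417 over 9 pairs and -0.34 to -0.0275 over 18 others. Deviations were taken from group means, so positive values in the same-numbered pairs push the others below 0. The ranges are therefore not separate evidence. The replicate number was taken to pair the libraries, and the main fit has no block. Alternatives were pseudocounts of 0.1 and 5, no filter, a filter of 5 RPM, other scalings, the block, no trend, the 6 libraries compared, and each library left out.

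Every member's level is given. Changes with tests are given for members past the threshold and always for HSP90B1, HSPA5, ATF6, ERN1, EIF2AK3, XBP1, ATF4 and DDIT3, with at most 4 called genes of each other list; CALR, EDEM3, TRIB3, SEC61A1, LMAN1, TXNDC5, ERLEC1, SVIP, SEC24A, SEC24C, SEC61A2, TRAM1 and PPP1R15A were added after their values were seen. Promoter motifs were matched in RefSeq sequences of GRCh38.p14, and no coordinate was carried between builds.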

Additional observations from a re-analysis of the deposited data

Results flagged for a closer look

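The effect of the 2 PVRL4 siRNAs differed for 3 members in the direct contrast of siRNA 2 against siRNA 1. The log2 difference was -0.74 for HSP90B1, -0.56 for CRELD2 and -0.53 for EDEM1, with limma adjusted p of 0.0019, 0.0106 and 0.0249. In all 3 genes every siRNA 2 library was below every siRNA 1 library. The same libraries of siRNA 2 enter the comparison with control, so this contrast is no independent support for it.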

How the results depend on the processing

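HSP90B1 was called lower with siRNA 2 in both comparisons under all alternatives run, with log2 changes of -0.89 to -0.64 against control and -0.84 to -0.58 against siRNA 1. The count of members lower, 3 in each comparison, became 6 and 6 with the replicate block and 1 and 1 by edgeR, and was 3 and 3 by DESeq2. Both edgeR and DESeq2 ran without siRNA 2 replicate 1, the lowest library for HSP90B1, CRELD2 and EDEM1. Method and missing library cannot be told apart in those counts. Without that library, limma also lost CRELD2 and EDEM1 against control and EDEM1 against siRNA 1. Against control it was 1 with no trend; with 1 library left out it ran from 1 to 3 against control and from 1 to 4 against siRNA 1. The replicate block added EDEM3, TRIB3 and SEC61A1 against control, and SEC61A1, TRIB3 and XBP1 (-0.31, adjusted p = 0.0222) between the siRNAs; it changed no other call of a member. The member count with siRNA 1 against control was 0 under all alternatives. Members below 0 with siRNA 2 against control numbered 27 as reported and 26 under each other scaling.

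Over all genes, calls with siRNA 1 against control, 95 as reported, were 57 with no filter, 206 with the replicate block, 49 with no trend, 163 by DESeq2 and 46 to 137 with 1 library left out. With siRNA 2 against control, 76 became 29 with no filter, 380 with the replicate block, 17 with no trend, 20 by edgeR and 18 to 70 with 1 library left out. Between the siRNAs, 340 became 197 with no filter, 1041 with the replicate block, 192 with no trend, 212 with only the 6 libraries compared, 143 by edgeR and 153 to 306 with 1 library left out. The cause of these shifts was not tested.

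Signs turned for small changes that passed no test. With 1 library left out, the log2 change with siRNA 1 against control ran from -0.018 to 0.13 for XBP1 and from -0.076 to 0.065 for ATF4. With siRNA 2 against control it ran from -0.0036 to 0.086 for ATF6, from -0.23 to 0.073 for ERN1 and from -0.10 to 0.034 for ATF4. Between the siRNAs it ran from -0.18 to 0.034 for HSPA5, from -0.15 to 0.0077 for EIF2AK3 and from -0.12 to 0.017 for ATF4. With siRNA 2 against control, ERN1 was 6.1e-05 by DESeq2, and ATF4 was 0.0074 by edgeR and 0.019 by DESeq2. Between the siRNAs, EIF2AK3 was 0.036 by edgeR and 0.048 by DESeq2, and ATF4 was 0.0096 with TMM scaling, 0.016 with median-of-ratios scaling, 0.045 by edgeR and 0.057 by DESeq2. The cause was not tested. Depth limits DDIT3, which had 2 to 10 reads in the 8 libraries with recovered reads and 0.1 RPM in siRNA 2 replicate 1.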
